A study of Bos taurus with 12 samples.

Results

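The smooth muscle-type contractile genes described here are 10 genes for actins, actin-binding proteins and myosin subunits: ACTA2, ACTG2, TAGLN, TAGLN3, CNN1, MYL9, TPM1, TPM2, CALD1 and MYH11. They were chosen by name, with earlier results of these data known, and all 10 were found among the 33714 rows of the mRNA table. For 9 the row carried the gene's own name, while TPM1 was present only in 1 row joined with LOC112448453, so that its value covers both. All 10 were among the 15402 mRNAs with a mean of at least 0.1 FPKM (fragments mapped, scaled by transcript length and by library size, so that levels can be compared between genes) that were tested.

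The cells were bovine intramuscular preadipocytes, the precursors of the fat cells that lie within muscle, and 12 RNA libraries were sequenced, 3 for each of 4 days. All cultures were grown in medium with 15% fetal bovine serum, penicillin and streptomycin. The 0 d group was not induced. The 3 d, 6 d and 9 d groups were induced at 90% confluence with dexamethasone (a glucocorticoid), 0.5 mM IBMX (an inhibitor of phosphodiesterases) and 5 µg/mL insulin for 48 hours, after which 5 µg/mL insulin alone was kept. The cocktail had thus been withdrawn before each of the induced days was sampled. The amounts are those of the labels, and the study's methods give a different one for insulin. The study's methods call the 3 libraries of a day biological replicates, but no source used here says that they came from separate animals or cultures, so that the p-values measure only the spread between these libraries, which may be technical.

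Contraction in smooth muscle runs on thin filaments of actin, wound with tropomyosin and bound by calponin, caldesmon and transgelin, and on thick filaments of smooth muscle myosin with its light chains. Many of these genes carry binding sites for serum response factor (SRF), some of whose partners of the myocardin family sense the pool of unpolymerized actin. Cultured fibroblasts and preadipocytes also use part of this set in their stress fibers, and the remodelling of the actin cytoskeleton is a known early step of fat cell differentiation.

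ACTA2 encodes the actin of vascular smooth muscle and of myofibroblasts. It had 1642, 1674 and 1776 FPKM in the 0 d libraries and 24.6, 28.9 and 26.9 FPKM at 3 d. At 6 d the values were 1504, 1629 and 1617 FPKM, and at 9 d they were 596, 568 and 629 FPKM. The 3 d libraries thus lay far below all others, those of 6 d lay just under those of 0 d, and those of 9 d formed a separate level between. The mean of 3 d was 63.3-fold below that of 0 d (log2 -5.98, SE 0.0681, limma adjusted p = 7.22e-12), where limma was fitted to log2(FPKM + 0.1) and all fold changes on the log2 scale are from that fit. By that value ACTA2 ranked 12 from the lowest of the 15402 tested mRNAs. From 3 d to 6 d it rose 59.1-fold (log2 5.88, SE 0.0681, limma adjusted p = 1.36e-11), and from 6 d to 9 d it fell again (log2 -1.41, SE 0.0681, limma adjusted p = 1.04e-06). These are bulk libraries, in which fewer cells with a transcript and less of it in each cell cannot be told apart.

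ACTG2 encodes the other smooth muscle actin, typical of gut and other visceral muscle. Its values were 189, 191 and 203 FPKM at 0 d and 15.0, 19.2 and 18.6 FPKM at 3 d. They were 1370, 1468 and 1453 FPKM at 6 d, and 214, 208 and 236 FPKM at 9 d. Unlike those of ACTA2, the 6 d libraries stood far above those of the other 3 days, and the 9 d libraries lay just above those of 0 d without overlap. ACTG2 fell to 3 d (log2 -3.46, SE 0.0914, limma adjusted p = 9.71e-10) and then rose 81.2-fold to 6 d (log2 6.34, SE 0.0914, limma adjusted p = 5.7e-11). At 6 d it was 7.37-fold above its 0 d mean (log2 2.88, SE 0.0914, limma adjusted p = 1.67e-08), while the fitted change of 0.17 at 9 d vs. 0 d was not called (limma adjusted p = 0.17). The coding parts of ACTA2, ACTG2 and the other actin genes are nearly identical, so that how reads were shared between them by the authors' quantification could move their levels.

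The ratio of ACTG2 to ACTA2, both on the FPKM scale, set the 4 days apart. In the 0 d libraries it was 0.115, 0.114 and 0.114, and in those of 3 d 0.610, 0.664 and 0.692. The 6 d libraries had ratios of 0.911, 0.901 and 0.899, and for 9 d they were 0.359, 0.365 and 0.375. No library of any day entered the range of another day, and ACTA2 had the higher FPKM of both actins in all 12 libraries. At 6 d the values of both were close, and the sharing of reads named above could move their order. The mean log2 ratio was -3.13 ± 0.00861, -0.61 ± 0.0928, -0.15 ± 0.0106 and -1.45 ± 0.0307 (SD, n = 3) over the days in turn. An exact permutation test of the spread between days, over all ways of dividing the 12 libraries into 4 groups of 3 and without a direction, gave p = 6.49e-05, the smallest value that it can give.

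**Figure D1:**
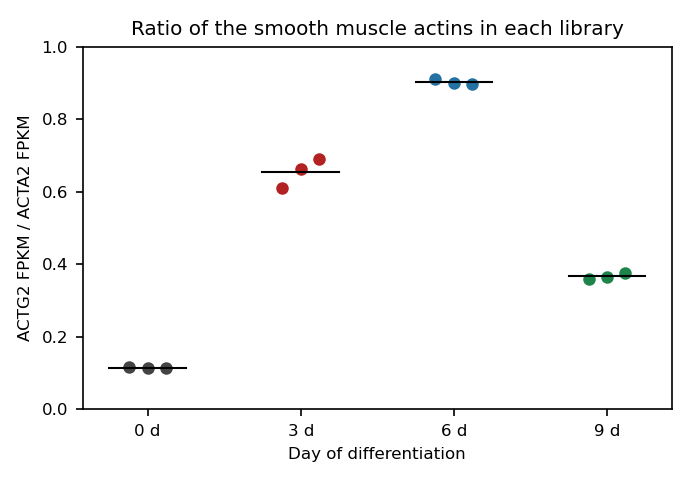
Ratio of ACTG2 FPKM to ACTA2 FPKM (vertical axis) in each of the 12 libraries by day of differentiation (horizontal axis). Points are libraries and lines are the means of 3. The ratio lies between 0.114 and 0.115 on the first day and between 0.899 and 0.911 at 6 d, with 3 d and 9 d between these.

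TAGLN encodes transgelin, a small protein that binds and bundles actin filaments. It had 215, 211 and 245 FPKM at 0 d and 18.1, 23.3 and 21.8 FPKM at 3 d. The 6 d libraries held 429, 456 and 459 FPKM and the 9 d libraries 149, 149 and 154 FPKM. The ranges of the days did not overlap, with 6 d above 0 d, 0 d above 9 d and 9 d above 3 d. TAGLN fell to 3 d (log2 -3.41, SE 0.0924, limma adjusted p = 1.16e-09) and rose from there to 6 d (log2 4.41, SE 0.0924, limma adjusted p = 4.42e-10). At 6 d vs. 0 d it sat at the fold threshold, with log2 1.00 (SE 0.0924, limma adjusted p = 1.91e-05). The call was lost when 0 d replicate 1, 0 d replicate 2, 6 d replicate 2 or 6 d replicate 3 was left out, with log2 values of 0.98, 0.96, 0.99 and 0.99.

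CNN1 encodes calponin, which binds actin and slows the myosin motor, and is used as a marker of contractile smooth muscle. Its level was low beside the actins, with 11.5, 10.3 and 13.7 FPKM at 0 d and 0.84, 1.28 and 0.97 FPKM at 3 d. It reached 42.3, 51.9 and 48.3 FPKM at 6 d and stood at 12.7, 14.9 and 11.7 FPKM at 9 d. The 6 d libraries were the highest and the 3 d libraries the lowest, whereas those of 0 d and 9 d overlapped. CNN1 fell at 3 d (log2 -3.41, SE 0.163, limma adjusted p = 6.3e-08). Its mean at 6 d was 4.02-fold that of 0 d (log2 2.0, SE 0.163, limma adjusted p = 7.9e-06), and its drop from 6 d to 9 d was called (log2 -1.85, SE 0.163, limma adjusted p = 3.73e-05).

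MYL9 encodes the regulatory light chain whose phosphorylation switches smooth muscle myosin on. It had 16.4, 17.2 and 18.1 FPKM at 0 d, 1.24, 1.58 and 1.60 FPKM at 3 d, 20.3, 20.1 and 19.5 FPKM at 6 d and 11.3, 10.0 and 11.2 FPKM at 9 d. The 3 d libraries were again the lowest, and the return at 6 d ended close to the level of 0 d, at 116% of its mean. MYL9 fell to 3 d (log2 -3.47, SE 0.0989, limma adjusted p = 1.58e-09) and rose from 3 d to 6 d (log2 3.68, SE 0.0989, limma adjusted p = 1.97e-09). The value of 9 d vs. 0 d, log2 -0.66, did not reach the fold threshold (limma adjusted p = 0.000529).

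**Figure D2:**
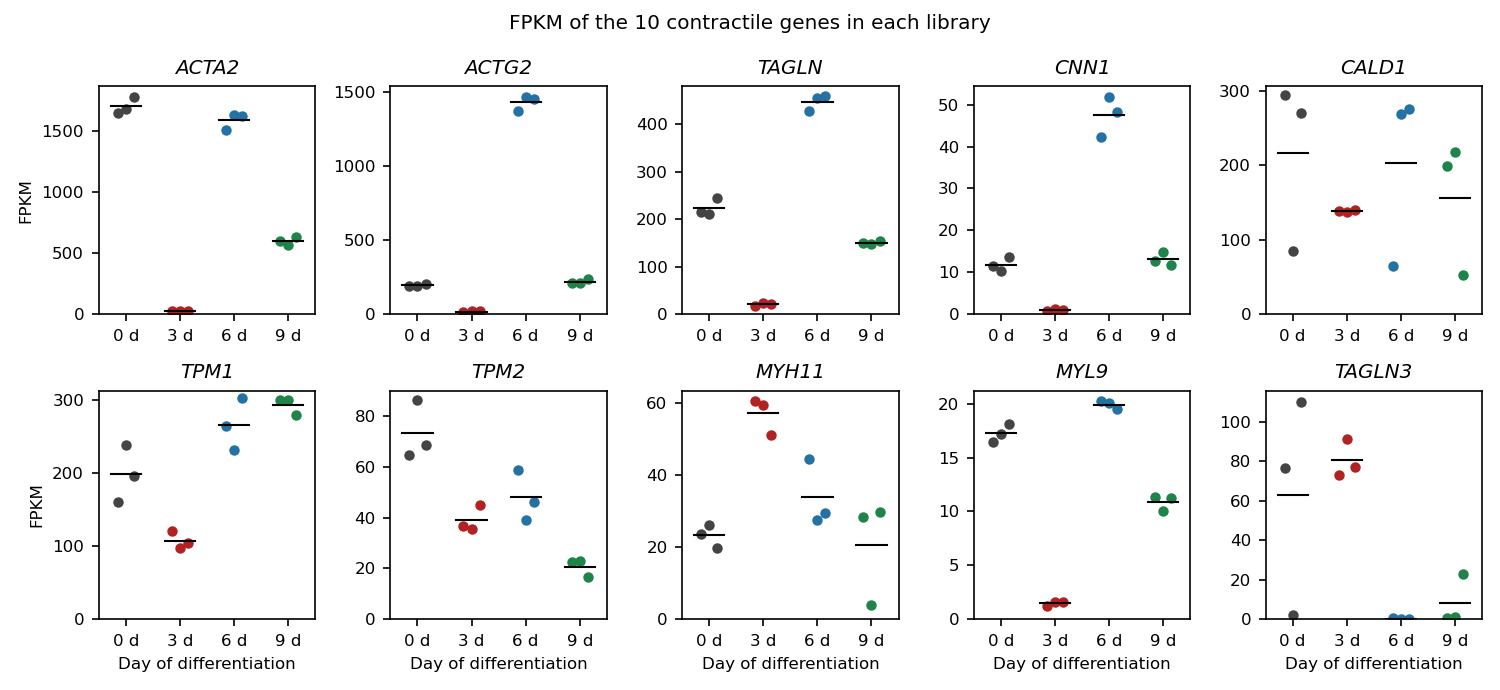
FPKM (vertical axis, linear and starting at 0, a scale for each gene) of the 10 genes in each library by day of differentiation (horizontal axis). Points are libraries and lines are means of 3. ACTA2, ACTG2, TAGLN, CNN1 and MYL9 are lowest in all 3 libraries of 3 d, and CALD1, MYH11 and TAGLN3 each have single libraries far from the others of their day.

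The smooth muscle myosin heavy chain MYH11, the motor of the thick filament and the member most restricted to smooth muscle, did not share this course. Its values were 23.7, 26.3 and 19.8 FPKM at 0 d, 60.6, 59.7 and 51.2 FPKM at 3 d, 44.6, 27.6 and 29.4 FPKM at 6 d and 28.3, 3.82 and 29.7 FPKM at 9 d. All 3 d libraries lay above all others, and 9 d replicate 2 lay far below the other libraries of its day. In the fit of all 12 libraries the value of 3 d vs. 0 d was log2 1.3 (SE 0.641, limma adjusted p = 0.118) and was not called. With only the 6 libraries of these days in the fit, which leaves out all of 6 d and 9 d, it was called at the same log2 value (limma adjusted p = 6e-04). Without 9 d replicate 2, the value of 9 d vs. 0 d changed sign, from log2 -0.64 to 0.33, and was not called either way. In the gene table of ARS-UCD2.0, which is not the build named in the study's methods, MYH11 overlaps NDE1, a gene of the centrosome. Although the study's methods describe strand-specific libraries, whether reads were assigned by strand is not given in the sources used here. NDE1 had 71.1, 61.1 and 79.7 FPKM at 0 d and 105 to 124 FPKM in the 9 later libraries.

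The tropomyosins lie along the actin filament and gate the access of myosin. The TPM1 row had 160, 239 and 196 FPKM at 0 d, 121, 97.8 and 104 FPKM at 3 d, 264, 231 and 302 FPKM at 6 d and 300, 300 and 279 FPKM at 9 d. TPM1 was thus lowest at 3 d, and the libraries of 9 d lay above those of 0 d. The change of 3 d vs. 0 d was log2 -0.87 (SE 0.146, limma adjusted p = 6e-04), short of the fold threshold, and it was called only without 0 d replicate 1 (log2 -1.01). The rise from 3 d to 6 d was called (log2 1.3, SE 0.146, limma adjusted p = 4.49e-05).

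TPM2 had 64.9, 86.6 and 68.9 FPKM at 0 d, 36.6, 35.7 and 45.0 FPKM at 3 d, 59.1, 39.0 and 46.1 FPKM at 6 d and 22.4, 22.8 and 16.8 FPKM at 9 d. The libraries of 3 d and 6 d overlapped, and those of 9 d were the lowest. TPM2 fell at 9 d vs. 0 d (log2 -1.83, SE 0.184, limma adjusted p = 4.09e-05) and from 6 d to 9 d (log2 -1.21, SE 0.184, limma adjusted p = 0.00125). At 3 d vs. 0 d its value was log2 -0.90 (limma adjusted p = 0.00201), which was called only without 3 d replicate 3 (log2 -1.01). At 9 d, TPM1 stood at 148% and TPM2 at 28.1% of the 0 d mean.

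CALD1 encodes caldesmon, an actin- and calmodulin-binding protein with a smooth muscle and a non-muscle form. Its values were 294, 85.1 and 270 FPKM at 0 d, 139, 137 and 140 FPKM at 3 d, 65.2, 268 and 275 FPKM at 6 d and 198, 218 and 53.0 FPKM at 9 d. The 3 d libraries lay close together, while 0 d replicate 2, 6 d replicate 1 and 9 d replicate 3 each lay far below the rest of their day. The highest value of a day was 3.46-fold the lowest at 0 d, 4.21-fold at 6 d and 4.11-fold at 9 d, against 1.02-fold at 3 d. Among the 6040 mRNAs with a mean of at least 10 FPKM, the median of this quotient was 1.15 at 0 d, 1.14 at 6 d and 1.14 at 9 d, and 3.15%, 1.94% and 2.35% were as wide as CALD1. This comparison of spreads was chosen after the values had been seen. CALD1 was not called in any of the 5 comparisons (limma adjusted p of 0.617 to 0.887). Its log2 value at 6 d vs. 0 d, -0.16, became 0.15 without 0 d replicate 1, 0.09 without 0 d replicate 3 and 0.52 without 6 d replicate 1. For 9 d against 0 d it turned from -0.52 to 0.14 without 9 d replicate 3, which also turned the value against 6 d from -0.35 to 0.30. From 3 d to 6 d it turned from 0.29 to -0.05 without 6 d replicate 2 and to -0.07 without 6 d replicate 3, so that no direction is given for CALD1 in these comparisons.

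TAGLN3, a transgelin relative known mainly from neurons, had the widest spread of the 10 at 0 d and 9 d, but not at 3 d. It had 76.3, 1.82 and 110 FPKM at 0 d and 73.1, 91.2 and 77.0 FPKM at 3 d. At 6 d it was 0.34 FPKM in replicate 1 and listed at 0 in the other 2 libraries, and at 9 d it had 0.38, 0.90 and 22.7 FPKM. The 3 d libraries were all high and the 6 d libraries all at or near 0, whereas 0 d replicate 2 and 9 d replicate 3 lay apart from the other libraries of their day. TAGLN3 fell from 3 d to 6 d (log2 -8.93, SE 1.69, limma adjusted p = 0.00146), a size that depends on the pseudocount, since values of 0 enter: it ran from -11.26 to -6.2 over other settings and from -9.65 to -8.58 as single libraries were left out. The value of 3 d vs. 0 d turned from log2 1.66 to -0.20 without 0 d replicate 2. That of 9 d vs. 0 d, log2 -3.51 (limma adjusted p = 0.135), was called without 0 d replicate 2 (log2 -5.37, limma adjusted p = 0.0182) or without 9 d replicate 3 (log2 -5.19, limma adjusted p = 0.0295).

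Counted over the members, 5 of 10 were called lower at 3 d vs. 0 d (absolute log2 fold change over 1 and Benjamini-Hochberg adjusted p under 0.05 over all tested mRNAs), namely ACTA2, ACTG2, TAGLN, CNN1 and MYL9. Of all tested mRNAs, 15.2% were called lower and 8.06% higher in that comparison. In the fit of all 12 libraries no member was called higher by limma, and 0 were higher at an unadjusted p under 0.05. With only the 6 libraries of these days in the fit, 1 member, MYH11, was called higher. The median log2 fold change was -2.16 for the members and -0.06 for all tested mRNAs.

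At 6 d vs. 3 d, 6 members were called higher (ACTA2, ACTG2, TAGLN, CNN1, MYL9 and TPM1), against 9.85% of all tested mRNAs. TAGLN3 was called lower, against 9.23%. The median was 2.49 for the members and -0.09 for all. From 6 d to 9 d, ACTA2, ACTG2, TAGLN, CNN1 and TPM2 were called lower, 5 of 10 beside 1.89% of all tested mRNAs. No member was called higher by limma there, beside 2.55% of all, and 0 were higher at an unadjusted p under 0.05. The median was -1.18 for the members and -0.04 for all.

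Against 0 d, ACTG2, TAGLN and CNN1 were called higher at 6 d, 3 of 10 beside 3.39% of all tested mRNAs. TAGLN3 was called lower, beside 7.97%. For ACTA2 the 6 d libraries did not overlap those of 0 d, but the fitted log2 value of -0.10 was not called and turned to 0.07 when libraries were rescaled by their median ratio. At 9 d vs. 0 d, ACTA2 and TPM2 were called lower, 2 of 10 beside 7.47%. By limma 0 members were called higher at 9 d, beside 3.41%, and TPM1 alone was higher at an unadjusted p under 0.05. TPM1 missed only the fold threshold there (log2 0.58, limma adjusted p = 0.011). The members' medians were 0.32 at 6 d and -0.60 at 9 d, beside -0.15 and -0.19 for all. These comparisons share the 0 d libraries, and those between successive days also have libraries in common, so that they are not independent of each other.

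**Figure D3:**
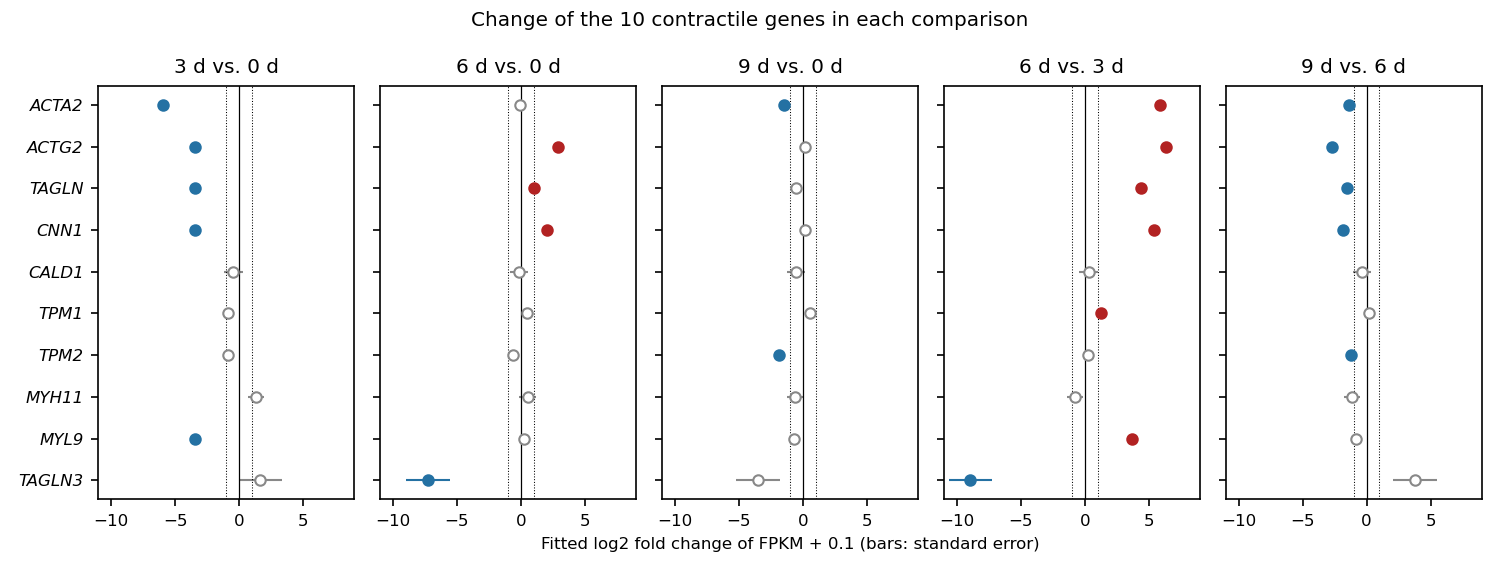
Fitted log2 fold change of FPKM + 0.1 (horizontal axis) of the 10 genes in 5 comparisons, with bars for the standard error of the fit. Red points were called higher, blue points lower and open points not called, and dotted lines mark log2 values of -1 and 1. At 3 d vs. 0 d 5 genes were called lower, and at 6 d vs. 3 d 6 were called higher.

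For the actins and transgelin the mRNAs with the most similar course were sought among 11323 mRNAs with a mean of at least 1 FPKM, tRNA genes left out, by Pearson r of log2(FPKM + 0.1) over the 12 libraries. Such an r is carried mainly by differences between days that many mRNAs share. ACTA2 was most like WDR1 (r = 0.9981), ANXA3 (r = 0.9973) and ITGB3 (r = 0.9971). WDR1, a factor of actin filament disassembly, had means of 201, 59.6, 190 and 144 FPKM at 0, 3, 6 and 9 d, a far shallower dip than that of ACTA2. ACTG2 was most like CYR61 (r = 0.9933), a secreted matricellular protein with means of 348, 181, 613 and 349 FPKM, and then ERGIC1 and SEC31A, both of the early secretory pathway. TAGLN was most like CSRP1 (r = 0.9983), a LIM protein of smooth muscle, the cytoplasmic actin ACTB (r = 0.9961) and the actin crosslinker ACTN1 (r = 0.9949).

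Of 18 further genes listed for smooth muscle, 14 were called lower at 3 d vs. 0 d. Not all of the 18 are particular to smooth muscle. The median log2 fold change of the list was -1.50 beside -0.06 for all tested mRNAs. From 3 d to 6 d 12 were called higher and SYNM lower (median 1.40 beside -0.09), but the call of SYNM was lost with a pseudocount of 1 and with rescaling by the median ratio. LMOD1, a nucleator of actin filaments in smooth muscle, had 11.2 ± 0.74, 0.307 ± 0.0971, 13.4 ± 0.341 and 5.13 ± 0.358 FPKM (SD, n = 3) over the 4 days. The light chain kinase gene MYLK, whose product phosphorylates the MYL9 protein, had 58.1 ± 2.67, 18.4 ± 0.834, 111 ± 5.35 and 35.1 ± 5.79 FPKM on these days. KCNMB1, a potassium channel subunit of smooth muscle, had 7.97 ± 0.567 FPKM at 0 d, at most 0.10 in any library of 3 d, and 2.72 ± 0.259 at 6 d. SMTN, the gene of smoothelin, was called higher at 6 d vs. 0 d (log2 1.34), while its value at 3 d against 0 d, log2 -0.05, was not called. It had 67.8 ± 6.16 FPKM at 0 d, 66.0 ± 9.83 FPKM at 3 d and 172 ± 11.8 FPKM at 6 d. At 6 d vs. 0 d, 1 was called higher and 3 lower (median -0.13 beside -0.15), at 9 d vs. 0 d 7 were called lower (median -0.75 beside -0.19), and at 9 d vs. 6 d 3 were (median -0.61 beside -0.04). With a pseudocount of 1, and also with the rescaling, 4 were called lower at 9 d vs. 0 d in place of 7.

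The non-muscle relatives of the members and their actin partners were read beside them. For this list and those that follow, the shares and medians of all tested mRNAs are those given above for each comparison. Of 16 genes, 12 were called lower at 3 d vs. 0 d (median -1.33) and 12 higher at 6 d vs. 3 d (median 1.42). CNN2, the non-muscle calponin, went from 143 ± 9.68 FPKM at 0 d to 11.7 ± 0.782 at 3 d and 130 ± 9.22 at 6 d. ACTB had 1140 ± 44.3, 339 ± 26.0, 1400 ± 37.6 and 899 ± 22.0 FPKM at 0, 3, 6 and 9 d, so that its dip was smaller than that of ACTA2. At 3 d the mean of ACTB was above that of ACTA2, and at 0 d it was below. VCL, the gene of vinculin, was called higher at 6 d vs. 0 d, where the list's median was 0.08. At 9 d, by limma 0 of 16 were called against 0 d (median -0.27) and 0 against 6 d (median -0.45), with 12 and 11 at an unadjusted p under 0.05. Against 0 d 10 of these were lower and 2 higher, and against 6 d all 11 were lower. Many missed only the fold threshold. Against 0 d they included FLNA (log2 -0.69, limma adjusted p = 1.85e-05) and VCL (log2 0.51, limma adjusted p = 0.000152). Against 6 d they included MYH9 (log2 -0.61, limma adjusted p = 3.98e-06). TPM4, with 1280 ± 944 FPKM at 6 d and a range from 705 to 2372 FPKM there, also had libraries of a day far apart.

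SRF itself, the transcription factor named above, was called lower at 3 d vs. 0 d (log2 -1.03), with 20.3 ± 2.03 FPKM at 0 d, 9.89 ± 0.956 FPKM at 3 d, 13.1 ± 3.29 FPKM at 6 d and 14.0 ± 1.40 FPKM at 9 d. Its values from 3 d to 6 d (log2 0.37, limma adjusted p = 0.115) and at 6 d vs. 0 d (log2 -0.66) were not called. Its partner MRTFA (listed as MKL1), of the myocardin family, was called lower at 3 d vs. 0 d (log2 -1.27) and higher from 3 d to 6 d (log2 1.17). The related MRTFB (listed as MKL2) was called in neither, with log2 -0.38 at 3 d vs. 0 d (limma adjusted p = 0.546) and -0.59 from 3 d to 6 d (limma adjusted p = 0.343). MYOCD, the smooth muscle partner of SRF, had 0.0133 ± 0.00577 FPKM at 0 d and 0.203 ± 0.0493 FPKM at 6 d and was under the filter, so that it was not tested.

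Among 12 genes of the TGF-beta pathway, which drives contractile genes in fibroblasts, 3 were called lower at 3 d vs. 0 d (median -0.07 beside -0.06). Of all tested mRNAs, 15.2% were called lower there. CTGF (CCN2), a matricellular protein, had 2440 ± 81.0, 56.4 ± 3.03, 1680 ± 94.5 and 1910 ± 82.1 FPKM over the days. The matrix gene TGFBI was highest at 6 d, with 66.4 ± 3.25, 93.5 ± 6.99, 712 ± 31.6 and 431 ± 14.0 FPKM over the days. Against 0 d, 2 were called higher at 6 d (median -0.16), at 9 d vs. 0 d 1 higher and 2 lower (median -0.34), at 6 d vs. 3 d 3 higher and 2 lower (median 0.27), and at 9 d vs. 6 d 2 lower (median -0.27). A pseudocount of 1 left 0 lower at 6 d vs. 3 d by limma. A block for the replicate number left 1 lower at 9 d vs. 0 d and 1 lower at 9 d vs. 6 d.

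**Figure D4:**
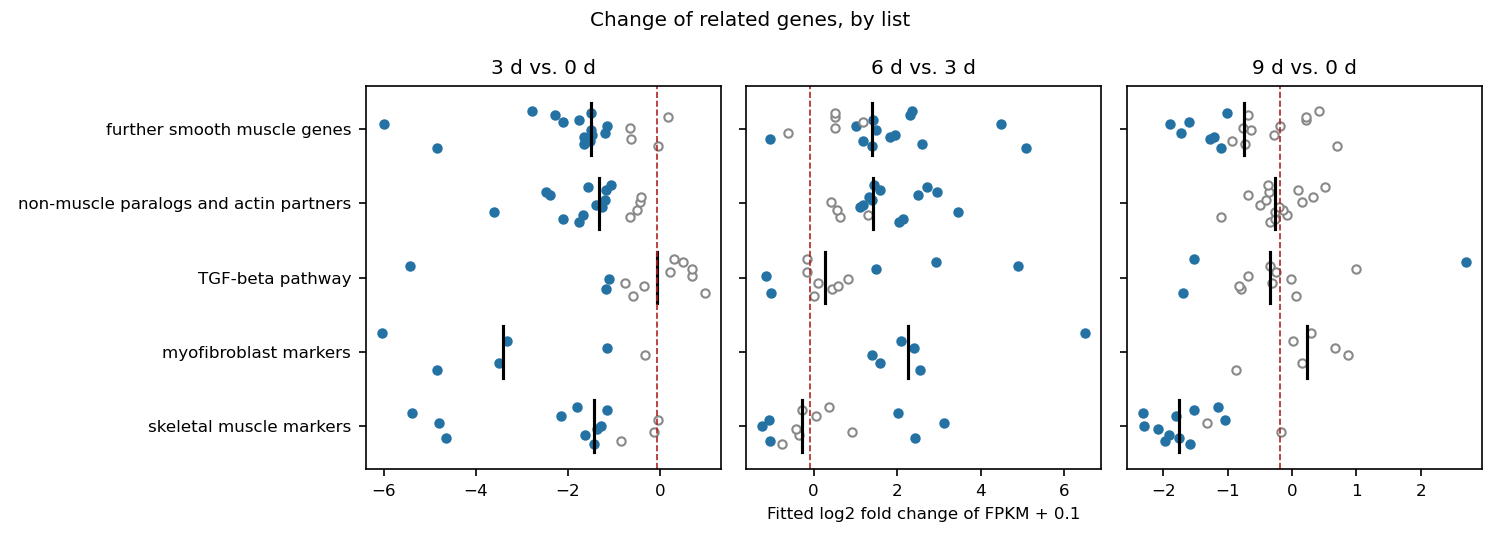
Fitted log2 fold change of FPKM + 0.1 (horizontal axis, a scale for each comparison) of the tested genes of 5 lists in 3 comparisons. Filled points were called and open points were not, short black lines are the medians of the lists, and the dashed line is the median of all tested mRNAs. At 3 d vs. 0 d the medians were -1.50 for further smooth muscle genes, -1.33 for non-muscle relatives and -3.41 for myofibroblast markers.

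Marker genes were read beside the members, since several cell types of muscle tissue express them. Of 6 myofibroblast markers, 5 were called lower at 3 d vs. 0 d (median -3.41) and 6 higher at 6 d vs. 3 d (median 2.25). Against 0 d, 2 were higher and 3 lower at 6 d (median -0.37), and at 9 d vs. 6 d 3 were higher (median 0.53). By limma 0 of 6 were called at 9 d vs. 0 d (median 0.23), with 4 at an unadjusted p under 0.05. These 4 missed only the fold threshold (limma adjusted p of 7.91e-07 to 0.00972). They were FN1 (log2 0.87), CTHRC1 (log2 0.67), TNC (log2 0.29) and POSTN (log2 -0.87). The summed level of all 6 was 8150 to 8320, 3010 to 3270, 14200 to 15000 and 11900 to 12800 FPKM in the libraries of 0, 3, 6 and 9 d, with TNC the most abundant at 0 d and FN1 on the later days. Their part in the course of the members was not tested.

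Skeletal muscle markers were present at 0 d, and 10 of 13 were called lower at 3 d, 11 at 6 d and 11 at 9 d vs. 0 d (medians -1.43, -1.90 and -1.76). Their summed level was 2100 to 2350, 810 to 925, 570 to 648 and 633 to 754 FPKM in the libraries of these days in turn, with ACTC1 the most abundant at 0 d and 3 d and MYL1 at 6 d and 9 d. Between 3 d and 6 d, 3 were called higher and 3 lower (median -0.28), and at 9 d vs. 6 d CKM was called higher (median 0.21). That call was lost with a pseudocount of 1 and also with a block for the replicate number.

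Of 8 pericyte markers, RGS5 and HIGD1B were near 0 in all libraries, with at most 0.107 FPKM as the mean of a day, and were not tested. Of the other 6, 3 were called higher and 3 lower at 3 d vs. 0 d (median 0.35), where NOTCH3, CSPG4 and PDGFRB fell and KCNJ8 rose from 7.81 ± 1.83 to 485 ± 40.4 FPKM. At 6 d vs. 0 d 1 was higher and 3 lower (median -0.46), at 9 d vs. 0 d 1 and 2 (median -0.26), at 6 d vs. 3 d 2 and 3 (median -0.86) and at 9 d vs. 6 d 1 and 1 (median 0.08), where the lower call was lost with a pseudocount of 1. The list summed to 851 to 868, 762 to 861, 336 to 343 and 727 to 785 FPKM on the 4 days in turn, with PDGFRB the most abundant over all libraries and KCNJ8 at 3 d.

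The endothelial markers PECAM1, CDH5, KDR and TIE1 were at or near 0 on each day, and the 7 of the list summed to 2.52 to 3.72 FPKM, led by VWF. Of the 3 tested, 2 were called lower at 6 d vs. 3 d and 1 at 6 d vs. 0 d, and by limma 0 in the other 3 comparisons, in each of which 2 were at an unadjusted p under 0.05. All these calls were lost with a pseudocount of 1. The medians were 0.27, -0.15 and -0.54 at 3, 6 and 9 d vs. 0 d, -1.02 at 6 d vs. 3 d and 0.24 at 9 d vs. 6 d. Of 5 blood and immune markers, PTPRC was listed at 0 in all 12 libraries, and their sum was 0.66 to 2.99 FPKM. CD14, the most abundant, was called higher at 3 d and at 9 d vs. 0 d (the call at 9 d was lost with a pseudocount of 1), the medians of the 2 tested genes being 1.02, 0.49 and 0.89 at 3, 6 and 9 d, -0.53 from 3 d to 6 d and 0.40 from 6 d to 9 d. By limma 0 of these 2 were called in the 3 remaining comparisons, with 1 at an unadjusted p under 0.05 in each. That gene was CD14, which missed only the fold threshold there (limma adjusted p of 0.00328 to 0.0179).

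As for the labelled cell type, the fibroblast and preadipocyte markers summed to 116000 to 225000 FPKM, led by COL3A1, while the preadipocyte marker DLK1 was at or near 0 and CD34 had at most 0.76 FPKM in any library. Of 7 tested, 4 were called higher and 2 lower at 3 d (median 1.56), 3 and 1 at 6 d (median 0.03) and 2 and 1 at 9 d vs. 0 d (median 0.48). At 6 d vs. 3 d 1 was higher and 1 lower (median -0.39), and at 9 d vs. 6 d by limma 0 were called (median 0.21), with 5 at an unadjusted p under 0.05. Among those that missed only the fold threshold there were COL3A1 (log2 0.83, limma adjusted p = 1.25e-06) and THY1 (log2 -0.99, limma adjusted p = 1.99e-05). Of 10 adipocyte markers, 6 were called higher at 3 d, 5 at 6 d and 5 at 9 d vs. 0 d (medians 1.21, 0.84 and 0.94). With a pseudocount of 1, or among mRNAs with a mean FPKM of at least 1, these counts were 3, 2 and 2. At 6 d vs. 3 d 2 were lower (median -0.57), and at 9 d vs. 6 d 2 were higher and 1 lower (median -0.02). Their sum was 52.4 to 60.3, 181 to 188, 83.9 to 101 and 69.2 to 81.5 FPKM on the 4 days in turn. The most abundant over all libraries was the row of PLIN1 joined with PEX11A, and at 3 d FABP4. FABP4, a fatty acid carrier, had 3.30 ± 0.255, 91.1 ± 4.42, 26.4 ± 1.95 and 9.07 ± 1.61 FPKM over the days. ADIPOQ, a defining gene of mature adipocytes, had a mean of at most 0.723 FPKM on any day.

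Circular RNAs give another readout of the same loci. Among 14070 circRNAs, 15 had a member as host gene in the deposited annotation, 8 of TPM1, 4 of ACTA2, 2 of CALD1 and 1 of MYL9, and ACTG2, TAGLN, CNN1, TPM2, MYH11 and TAGLN3 had 0. The host is the deposited symbol only. Of the 4 listed under ACTA2, circRNA8703 and circRNA11737 are on the plus strand and circRNA1247 and circRNA6512 on the minus strand, so that not all can be sense transcripts of that gene. All 15 member circRNAs together held 44 back-spliced reads, 22 of them listed under ACTA2, at library totals of 5358 to 10729 reads. Only 2 of the 15 reached the 5 reads needed for a test. The 3-exon circRNA8703 of ACTA2 had 0 reads in the 6 libraries of 0 d and 3 d, 4 reads in 6 d replicate 1 and 0 in the other 6 d libraries, and 6, 3 and 2 reads at 9 d. All 8 reads of circRNA4582 of TPM1 came from 0 d replicate 3. The only other one described, circRNA11737, listed under ACTA2, had 4 reads, all in 9 d replicate 2. In edgeR's quasi-likelihood test 0 of the 2 tested were called against 0 d on any day (adjusted p of 0.569 to 1), although 2 of the 6 tests had an unadjusted p under 0.05. DESeq2 called 0 of these 2, with 0 at an unadjusted p under 0.05. By edgeR, of all 2828 circRNAs tested, 23 (0.813%) were called at 3 d, 15 (0.53%) at 6 d and 16 (0.566%) at 9 d against 0 d.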

How the data were processed

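RNA of 12 libraries, 3 for each of 0, 3, 6 and 9 d, was measured. The mRNA values are FPKM that the authors computed, and the circRNA values are counts of back-spliced reads, as deposited. The submitters' processing notes name HISAT2 2.0, StringTie 1.3.0 and Bowtie 0.12.2. Those notes list a mouse genome build where the study's methods name a bovine one, and the labels describe poly(A) selection where the methods describe rRNA depletion. The amount of insulin also differs between them, and that of the labels is given. FPKM hold no read numbers. The study's text gives a range of reads over all samples, but no depth for each library was used for the mRNA values. The 12 scaled (SRPBM) columns of the circRNA table and the lncRNA and miRNA tables were not used.

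Members and lists were chosen with earlier results of these data known. The counts of 1 list are not reported here. For mRNAs with a mean FPKM of at least 0.1, limma 3.58.1 (R 4.3.3, eBayes with a trend) was fitted to log2(FPKM + 0.1) of all 12 libraries. Circular RNAs with at least 5 reads were tested with edgeR 4.0.16 (TMM, quasi-likelihood) and, as an alternative, DESeq2 1.42.0. Genes in joined rows were matched by each name. All members and genes of the lists could be named, with the 3 mRNAs most like ACTA2, ACTG2 and TAGLN and the 3 member circRNAs with most reads. Alternatives were other pseudocounts and filters, a rescaling, fits of 6 libraries, a block for the replicate number and leaving out each library. The limma and edgeR fits were tested on simulated data, where limma recovered most of the changed mRNAs but edgeR few of the changed circRNAs. DESeq2 was not tested in this way. Figures used Matplotlib 3.10.9.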

Additional observations from a re-analysis of the deposited data

How the results depend on the processing

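The counts of members called stayed within 1.5 times in all 65 alternatives over the 5 comparisons. Leaving out 1 library gave 5 to 6 for 3 d, 3 to 4 for 6 d and 2 to 3 for 9 d against 0 d, 7 from 3 d to 6 d and 5 from 6 d to 9 d. Of the 650 values of single members under an alternative, 630 kept their direction and their side of the threshold, 4 lost a call, 5 gained one and 11 changed sign. Rescaling by the median ratio turned ACTA2 at 6 d vs. 0 d to log2 0.07 and CALD1 to 0.01. It raised the median of all mRNAs by 0.16 for 6 d and 0.19 for 9 d against 0 d, and the share of higher among all calls from 29.8% to 40.8% and from 31.3% to 46.8%.

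Over the libraries left out, log2 values ran from -0.20 to 2.73 for TAGLN3 (3 d vs. 0 d) and from -1.14 to 0.33 for MYH11 (9 d vs. 0 d). For CALD1 they ran from -0.74 to 0.52 (6 d vs. 0 d), -1.09 to 0.14 (9 d vs. 0 d), -0.07 to 0.97 (6 d vs. 3 d) and -1.04 to 0.30 (9 d vs. 6 d). The cause was not tested. A pseudocount of 1 lowered the calls over all mRNAs from 1241 higher and 2344 lower to 738 and 1446 for 3 d, from 522 and 1227 to 318 and 649 for 6 d, and from 525 and 1150 to 311 and 577 for 9 d against 0 d. From 3 d to 6 d they went from 1517 and 1422 to 932 and 756, and from 6 d to 9 d from 392 and 291 to 211 and 157.

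Deviations of libraries with the same replicate number had r of -0.10 to 0.11 over 18 pairs, 2 of them over 0.1, so that the libraries were taken to share only a number. With a replicate block, members called were 5, 4 and 2 for 3, 6 and 9 d against 0 d, 7 from 3 d to 6 d and 5 from 6 d to 9 d, and 0 circRNAs by edgeR. With a minimum of 20 reads no member circRNA could be tested. With single libraries left out, the mean log2 ratio of ACTG2 to ACTA2 stayed at -3.13 at 0 d and ran from -0.65 to -0.56 for 3 d, between -0.15 and -0.14 for 6 d, and from -1.46 to -1.43 for 9 d. The list counts were run under 6 other settings, a choice made after seeing the data, and 301 of 330 stayed within 1.5 times. Rescaling gave 2 higher for the non-muscle relatives at 6 d vs. 0 d, 1 higher for the myofibroblast markers at 9 d vs. 0 d and 1 lower for the endothelial markers at 6 d vs. 3 d. With a pseudocount of 0.01, 1 adipocyte marker was higher and 3 lower at 6 d vs. 3 d, 1 skeletal muscle marker was higher and 1 lower at 9 d vs. 6 d, and 1 endothelial marker was higher there. The replicate block gave 0 skeletal muscle markers and 1 lower TGF-beta gene at 9 d vs. 6 d. The planned description of a promoter motif was not run.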
